A study of Mus musculus with 9 samples.

Results

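In oligodendrocytes (OLs) made from the mouse line EpiSC5, the SOX6 peak list was set against the H3K27ac peak list of the same cell type. The members were the peaks of these 2 libraries on chromosomes 1 to 19, which were 3858 of the 3949 SOX6 peaks and 30443 of the 31060 H3K27ac peaks, out of 165767 peaks in the 7 lists of the study. A SOX6 peak was placed by its summit, the base of highest signal that the deposited list gives, and was counted as inside or outside an H3K27ac peak.

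The study mapped both targets by chromatin immunoprecipitation and sequencing (ChIP-seq) in OLs and in oligodendrocyte progenitor cells (OPCs), and its title concerns the timing of OL maturation. OLs are labelled as derived from epiblast stem cells, and were O1-positive intermediate cells collected on a magnetic sorter. The progenitors were grown with bFGF and PDGFA, without SHH, and had been sorted for CD140a and NG2. The lines EpiSC5 and 129O1 come from the strains 129SvEv and 129S1/SvImJ, and no genetic change or drug is labelled for any group used here. Antibody was 15 µg per sample for SOX6 and 9 µg for H3K27ac. OL H3K27ac was also listed for 129O1, and OPC SOX6 and OPC H3K27ac for both lines, while OL SOX6 came from EpiSC5 alone. Each list is 1 library from a cultured line, so every comparison below is a description with no test. The intervals given are exact 95% binomial (Clopper-Pearson) intervals, which cover counting error only, and neighbouring peaks are not independent.

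SOX6 belongs to the SoxD group of transcription factors, which bind DNA through an HMG box and carry no activation domain of their own. In the oligodendrocyte lineage it is known for holding progenitors in the immature state. H3K27ac, acetylation of lysine 27 of histone H3, marks active promoters and enhancers, and long stretches of it lie over genes that define a cell type. As a check of the label, within 10 kb of the gene body, the myelin genes Mbp, Mag and Mobp had 37.6, 8.34 and 11.0 kb of H3K27ac in EpiSC5 OLs, against 4.32, 0 and 0 kb in EpiSC5 OPCs. Pdgfra, the PDGF receptor that defines progenitors, had 1.54 kb in OLs and 13.1 kb in OPCs. Tnr and Olig2, also of the OPC list, did not differ in that direction, with 114 kb in OLs and 11.2 kb in OPCs at Tnr, and 11.6 and 11.2 kb at Olig2. The other genes of that list were not compared here. In OLs the median was 5.40 kb over 29 myelin genes, with 0 kb at Ermn, and 7.03 kb over 30 OPC genes.

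Promoter sites are shown first because they made up 31.8% of the summits inside H3K27ac (817 of 2568, 30.02 to 33.7%) and 17.4% of those outside (201 of 1155, 15.3 to 19.7%). A promoter here is the window that starts 250 bases before an annotated start site and ends 50 bases after it, for chromosomes 1 to 17 and 19. The sequences below run 5′ to 3′ on the gene's strand, up to 50 bases either side of the SOX6 summit. They are cut off at the start site, or at the upstream end of the window as for Kmt2a. They are from RefSeq, assembly GRCm38.p6. Capitals mark CCGGAA or its reverse complement TTCCGG, the core letters that ETS-family factors read, and ACAAT or its reverse complement ATTGT, core letters that SOX factors read.

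The first group had among the highest promoter scores inside H3K27ac. Kmt2a encodes a histone H3 lysine 4 methyltransferase (minus strand, chr9:44881442-44881539, fold enrichment 20.95), and its window held none of these words. Zscan29 encodes a zinc finger protein (minus strand, chr2:121171148-121171248, fold enrichment 17.1), and Sec31a encodes a coat protein of vesicles that leave the endoplasmic reticulum (minus strand, chr5:100416235-100416335, fold enrichment 8.36).
Kmt2a: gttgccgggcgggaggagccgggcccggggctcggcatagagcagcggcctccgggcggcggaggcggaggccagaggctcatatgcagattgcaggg
Zscan29: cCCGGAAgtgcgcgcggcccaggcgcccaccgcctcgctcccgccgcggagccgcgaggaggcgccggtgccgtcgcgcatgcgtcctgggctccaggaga
Sec31a: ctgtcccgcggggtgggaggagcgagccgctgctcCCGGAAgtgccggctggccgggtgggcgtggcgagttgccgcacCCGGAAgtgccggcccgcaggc

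The next group stood outside H3K27ac with high promoter scores. Gtf2b encodes the general transcription factor TFIIB (plus strand, chr3:142765079-142765179, fold enrichment 16.3), and its window held none of these words. Slc29a3 encodes a nucleoside transporter (minus strand, chr10:60752813-60752913, fold enrichment 13.7), and Trappc3 encodes a subunit of the TRAPP vesicle tethering complex (plus strand, chr4:126262245-126262345, fold enrichment 11.0).
Gtf2b: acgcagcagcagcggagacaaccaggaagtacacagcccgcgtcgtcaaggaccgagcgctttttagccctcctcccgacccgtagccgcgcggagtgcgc
Slc29a3: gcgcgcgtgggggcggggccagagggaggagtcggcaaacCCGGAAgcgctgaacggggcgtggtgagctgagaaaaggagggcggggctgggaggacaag
Trappc3: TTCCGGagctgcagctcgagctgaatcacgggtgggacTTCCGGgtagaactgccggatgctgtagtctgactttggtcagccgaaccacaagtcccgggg

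The last pair shows promoters of genes from the lists described below, both inside H3K27ac. Chn2 encodes beta-chimaerin, which switches off the GTPase Rac (plus strand, chr6:54272615-54272715), and its window held ATTGT. The other is an internal start site of Sox6 itself (minus strand, chr7:115824762-115824862), whose window held none of these words.
Chn2: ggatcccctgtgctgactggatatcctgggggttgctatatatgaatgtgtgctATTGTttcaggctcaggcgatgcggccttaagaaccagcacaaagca
Sox6: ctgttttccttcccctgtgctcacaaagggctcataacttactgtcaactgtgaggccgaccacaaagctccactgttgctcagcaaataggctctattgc

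Whole windows of promoters were then counted. Windows of nearby start sites can overlap and share a summit, with 1017 windows for the 817 promoter summits inside H3K27ac. The windows are therefore not independent. The SOX letters ACAAT and ACAATAG were no more frequent in promoters with SOX6 than in acetylated promoters without it. Other words that SOX factors may read were not counted. ACAAT on either strand was in 18.6% of the 1017 promoter windows with a summit inside H3K27ac (16.2 to 21.1%) and in 18.6% of the 236 with a summit outside (13.9 to 24.2%). It was in 19.2% of 7601 promoters with H3K27ac and no SOX6 summit (18.3 to 20.1%), and in 30.5% of all 31363 windows. The longer ACAATAG, which contains ACAAT, was in 0.885%, 0.424%, 1.39% and 2.35% of the same 4 groups. A window without these letters says only that they are not in it.

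CCGGAA, counted after the sequences had been seen, had another distribution. It was in 69.2% of promoters with a summit inside H3K27ac (66.3 to 72.1%) and in 71.6% of those with a summit outside (65.4 to 77.3%). It was in 26.5% of acetylated promoters without SOX6 (25.5 to 27.5%) and in 15.1% of all windows. The median GC content of the 4 groups was 65.0%, 62.2%, 62.3% and 53.0%, in the same order. The part of GC content in these shares was not tested. Among promoters with a SOX6 summit in OPC lists, CCGGAA was in 45.8% for EpiSC5 (591 of 1289) and 48.9% for 129O1 (1235 of 2525), and ACAAT was in 34.2% and 28.0%. Promoters with a summit in OL and in either OPC list held CCGGAA in 73.7% (629 of 853), those in OL alone in 61.0% (244 of 400), and those in an OPC list but not in OL in 36.1% (660 of 1829), at a median GC content of 63.0%, 67.2% and 60.0% in that order. Promoters with SOX6 in OL thus held these letters more often than those with SOX6 in OPCs alone. A match of letters is a description and shows no factor bound there.

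Of the 3858 SOX6 summits, 2655 (68.8%, 67.3 to 70.3%) lay inside an H3K27ac peak and 1203 (31.2%) outside, while H3K27ac covered 42.8 Mb, 1.74% of the 2461 Mb spanned by the lists. With the H3K27ac list of 129O1 OLs in place of that of EpiSC5, 72.9% lay inside. The 129O1 list is larger, with 33058 peaks that cover 50.0 Mb. Read the other way, 2436 of the 30443 H3K27ac peaks (8.002%, 7.70 to 8.31%) held a SOX6 summit, and 28007 held none. Those with SOX6 made up 14.0% of the acetylated bases. In the higher-scoring 50% of H3K27ac peaks the share with SOX6 was 14.0%, and with the higher-scoring 50% of SOX6 peaks it was 4.28%.

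Most acetylated peaks with SOX6 had a single summit. Of the 2436, 2272 held 1 summit, 127 held 2, 26 held 3 and 11 held 4 or more. The peak with most summits was 9992 bp wide and held 8, over the long noncoding RNA gene Malat1 (chr19:5794863-5804854). The 8 summits spanned 8.26 kb, all of it acetylated, and 2 of them fell in each OPC SOX6 list.

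Inside the acetylated peaks the summits lay nearer the middle than the ends. On a scale with 0 at the edge and 1 at the centre, the median position was 0.728, and the 5 equal parts of that scale, edge first, held 6.55%, 8.36%, 18.4%, 29.1% and 37.6% of the summits. The median distance to the nearer edge was 650 bp. Summits outside had a median distance of 3847 bp to the nearest H3K27ac peak, but the distances were spread widely. Within 500 bp of a peak lay 27.4% of them, 12.6% lay at 500 bp to 2 kb, 29.1% at 2 to 10 kb, 21.6% at 10 to 50 kb and 9.31% at 50 kb or more. With each H3K27ac peak extended by 500 bp on both sides, 77.4% of all summits counted as inside.

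**Figure D1:**
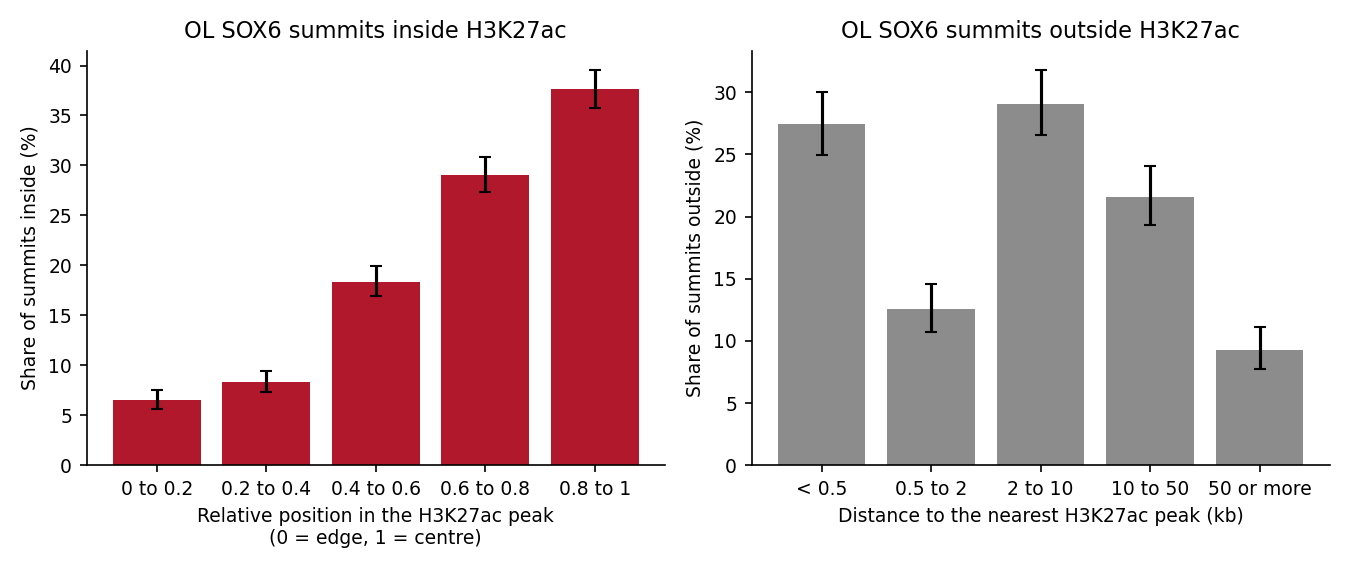
Left, share of the OL SOX6 summits inside H3K27ac (%) in 5 equal parts of the peak, edge to centre, where the innermost part held 37.6% and the outermost 6.55%. Right, share of the summits outside (%) by distance to the nearest H3K27ac peak in kb, with 27.4% under 0.5 kb and 9.31% at 50 kb or more. Error bars are exact 95% binomial intervals.

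Neither class stood out by the strength of its SOX6 peaks. The median fold enrichment, the authors' ratio of signal over background for each peak, was 4.98 inside and 5.33 outside, and the median −log10 q was 10.8 and 10.4. The median width of the SOX6 peaks was 241 bp inside and 257 bp outside. Peaks wider than 1 kb were 12 of 2655 inside (0.452%) and 47 of 1203 outside (3.91%), and 37 of those 47 belonged to the long runs of summits described below.

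The 5 highest scores inside H3K27ac were at Tcte3 with Ermard (fold enrichment 11.4), Fam172a (15.8), Gm3448 with Gm3435 (8.38), Gm3417 with 9030025P20Rik (6.94), and Tatdn1 with Ndufb9 (9.64). The Tcte3, Gm3448 and Gm3417 sites lie near each other on chromosome 17 and are near-identical copies. All 82 bases printed for Gm3448 recur within those of Tcte3, so reads of one copy may be placed at another and these scores are uncertain.
Tcte3: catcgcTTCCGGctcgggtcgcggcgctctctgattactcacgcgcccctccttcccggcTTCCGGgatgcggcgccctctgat
Gm3448: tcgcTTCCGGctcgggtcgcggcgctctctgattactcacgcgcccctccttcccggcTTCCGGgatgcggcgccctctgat

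The highest scores outside were more varied. The first was in Cacng4, which encodes an AMPA-receptor auxiliary subunit, with a fold enrichment of 23.2 and a −log10 q of 239, at 4911 bp from H3K27ac. Acvr1b, an activin receptor, followed at 8.76, and then Man2b2, a mannosidase, at 15.7, whose summit was only 126 bp from an H3K27ac peak. The fourth lay 124 kb from the nearest protein-coding gene, Fgf14, with a low fold of 4.12 for its score. The fifth was 1 of the many summits at Bcas1. Among SOX6 peaks with a deposited score of 500 or more, 0 inside and 8 outside had a fold under 5, and 55 inside and 25 outside had a fold of 5 or more.

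H3K27ac peaks with SOX6 were wider than those without. The median width was 1802.5 bp with SOX6 (quartiles 1253 and 2812 bp) and 1077 bp without (686 and 1616 bp), a ratio of 1.67. In the 129O1 OL list the ratio was 1.70. The peaks with SOX6 also had a higher fold enrichment, 5.22 against 3.82 at the median, and a higher −log10 q, 24.1 against 8.88. The share with SOX6 was larger in each wider bin, and was 1.38% under 500 bp, 3.38% at 0.5 to 1 kb, 8.77% at 1 to 2 kb, 16.5% at 2 to 4 kb, 27.1% at 4 to 8 kb and 48.1% (65 of 135) at 8 kb or more. A wider peak has more bases to hold a summit. Per Mb of acetylated sequence the same bins held 42.0, 44.3, 65.0, 68.9, 61.6 and 71.9 summits, so the density changed little from 1 kb upward.

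The width difference was mostly shared with the score of the H3K27ac peaks. Of the 10 equal groups by score, the lowest had SOX6 in 1.02% of its peaks and the highest in 28.0%. In that highest group the median width was 2625 bp with SOX6 and 2365 bp without. With the peaks lacking SOX6 weighted to the scores of those with it, the ratio of medians was 1.07 in place of 1.67. With H3K27ac peaks joined across gaps of up to about 12 kb it was 4.51.

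**Figure D2:**
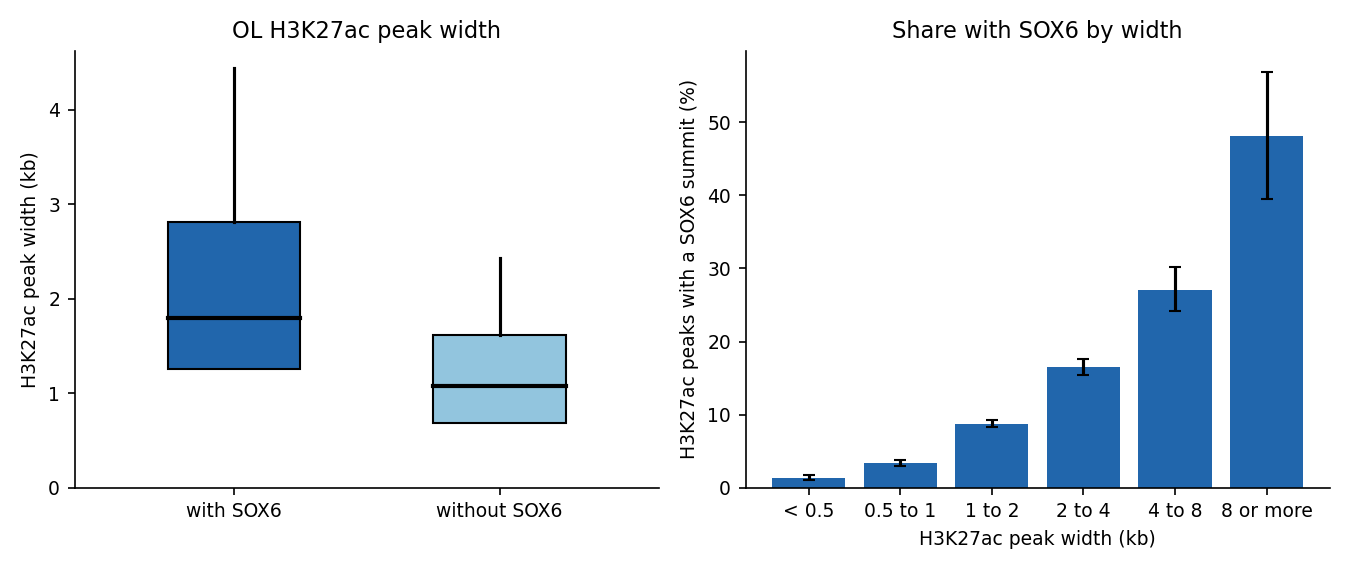
Left, width of OL H3K27ac peaks (kb) with and without a SOX6 summit, with box edges at the quartiles, the line at the median (1802.5 and 1077 bp) and the whisker up to the 90th percentile. Right, share of H3K27ac peaks with a SOX6 summit (%) by width in kb, 1.38% in the narrowest bin and 48.1% in the widest, with exact 95% binomial intervals.

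The widest acetylated peak with SOX6, 28581 bp, was in Map4k4, a kinase of the stress-signalling MAP kinase branch, and held 2 summits. Soga1 followed with 26837 bp and 1 summit. Bcar1, an adaptor of adhesion signalling, had 26437 bp and 2 summits. A stretch of 23232 bp on chromosome 1, 227 kb from the nearest protein-coding gene Plekhb2, held 4, and 22218 bp over Nfasc, the axonal and glial adhesion molecule neurofascin, held 2. Wide peaks without SOX6 were at Rapgef1 (23723 bp), a guanine nucleotide exchange factor for Rap1, Epn2 (21254 bp), an endocytic adaptor, Gramd3 (19655 bp), near Tnfrsf19 (17638 bp), and at Urm1 with Cercam (17025 bp).

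That last peak contained Mir219a-2. Of 919 annotated miRNA hairpins, 108 lay in H3K27ac and 21 in H3K27ac with SOX6. Among all H3K27ac peaks 8.002% held SOX6, and among those overlapping a promoter window 20.7%. Neighbouring hairpins can share a peak, as Mir2861 and Mir3960 did, so hairpins and not peaks were counted. The counts are no result about miRNA genes. Mir219a-2 and Mir338 encode miRNAs known to promote OL differentiation, and Mir9-2 one known in neural progenitors. They were chosen after their values had been seen. Mir9-2 lay in a peak of 20257 bp with 2 SOX6 summits, while the other hairpins of this miRNA, Mir9-1 (8593 bp peak) and Mir9-3 (1706 bp), were acetylated with no summit in the peak. The peaks of Mir219a-2 (17025 bp) and Mir338 (4764 bp) held none, and the nearest summits were 18.3 kb away inside H3K27ac and 5.66 kb away outside it. The mature sequences, from RefSeq, have bases 2 to 8, the seed, in capitals, and all 3 seeds differ.
miR-9-5p: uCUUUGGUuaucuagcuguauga
miR-219a-5p: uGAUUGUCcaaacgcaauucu
miR-338-3p: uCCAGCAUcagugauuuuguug

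Summits inside H3K27ac were in the bodies of protein-coding genes in 70.0% of cases (1859 of 2655, 68.2 to 71.8%), and summits outside in 58.1% (699 of 1203, 55.3 to 60.9%). Gene bodies make up 71.6% of the acetylated bases and 40.0% of the span, so the share inside was close to that of the acetylated sequence as a whole. The share outside was 45.4% when the runs of at least 10 summits described below were left out, an alternative chosen after the data had been seen, while the share inside was then 69.1%. Midpoints of H3K27ac peaks were in gene bodies in 76.4% with SOX6 and 70.7% without.

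Start sites divided the classes more than gene bodies did. Promoters and start sites on chromosome 18 were not analysed here. On the other chromosomes the nearest start site was under 1 kb away for 52.0% of summits inside H3K27ac (50.0 to 53.9%) and 21.6% of those outside (19.3 to 24.1%). The median distance was 707 bp inside and 17.9 kb outside. Among H3K27ac peaks overlapping a promoter window 20.7% had SOX6 (1302 of 6291), and among all others 4.58% (1057 of 23086). Both kinds were wider with SOX6, with medians of 1718.5 bp with SOX6 and 1260 bp without at promoters, and 1950 bp with SOX6 and 1036 bp without elsewhere. Promoter windows held 27.3% of all OL summits (1018 of 3723), against 7.65% in EpiSC5 OPCs (1113 of 14543) and 9.92% in 129O1 OPCs (2138 of 21548). The higher share in OLs thus came with no larger count of promoter summits. The OPC lists are longer, with 15166 and 22320 peaks, and the length of the lists cannot be told apart from the cell state.

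**Figure D3:**
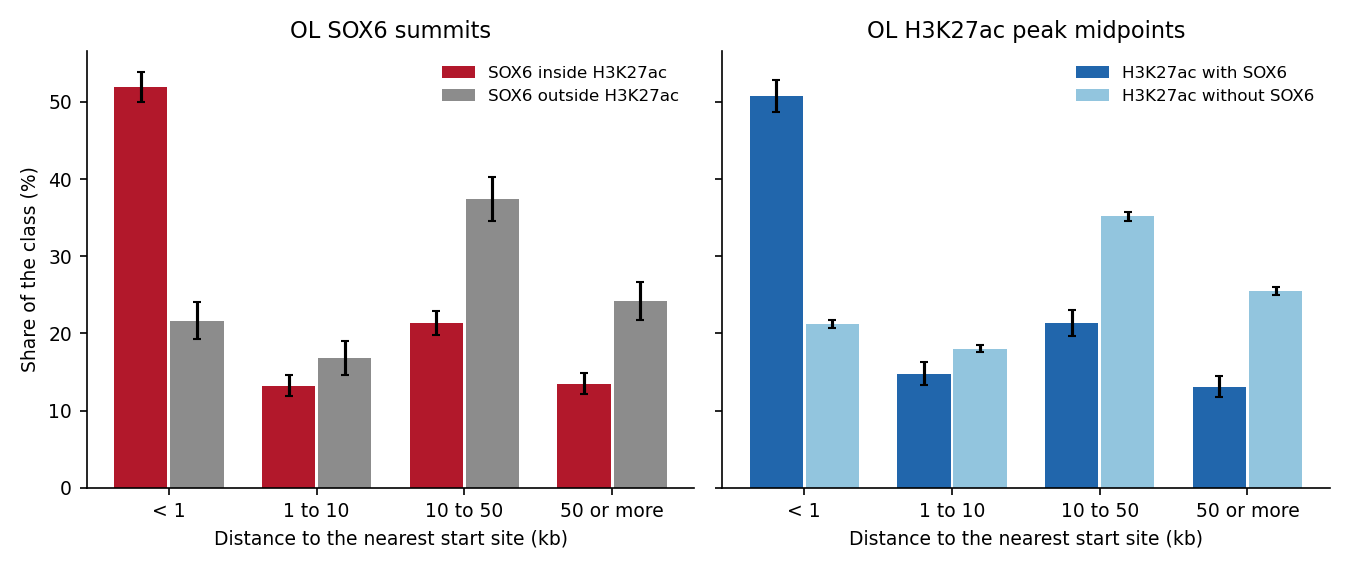
Share of each class (%) by distance to the nearest annotated start site in kb, on chromosomes 1 to 17 and 19. Left, OL SOX6 summits inside and outside H3K27ac, with 52.0% and 21.6% under 1 kb. Right, midpoints of OL H3K27ac peaks with and without SOX6. Error bars are exact 95% binomial intervals.

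The summits inside H3K27ac lay in peaks of other libraries more often than those outside. The classes were made by OL H3K27ac, so a difference in other H3K27ac lists is largely built in. The H3K27ac list of 129O1 OLs contained 96.3% of the summits inside and 21.3% of those outside, and the EpiSC5 OPC H3K27ac list contained 80.5% and 20.7%. SOX6 peaks of EpiSC5 OPCs contained 44.9% of the summits inside (42.99 to 46.8%) and 18.2% of those outside (16.1 to 20.5%), and SOX6 peaks of 129O1 OPCs contained 61.5% and 28.1%. For summits with no other within about 12 kb, these shares lay closer together. They were 47.1% inside and 32.7% outside for EpiSC5 OPCs, and 64.7% and 48.6% for 129O1 OPCs. Acetylated peaks with SOX6 in OLs overlapped EpiSC5 OPC H3K27ac in 85.1% and those without in 49.9%. They overlapped EpiSC5 OPC SOX6 peaks in 54.7% and 23.1%, although a wider peak is also likelier to overlap something. The OL SOX6 share inside H3K27ac, 68.8%, stood beside 64.1% in EpiSC5 OPCs and 66.7% in 129O1 OPCs, where 33.2% and 43.8% of H3K27ac peaks held SOX6.

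**Figure D4:**
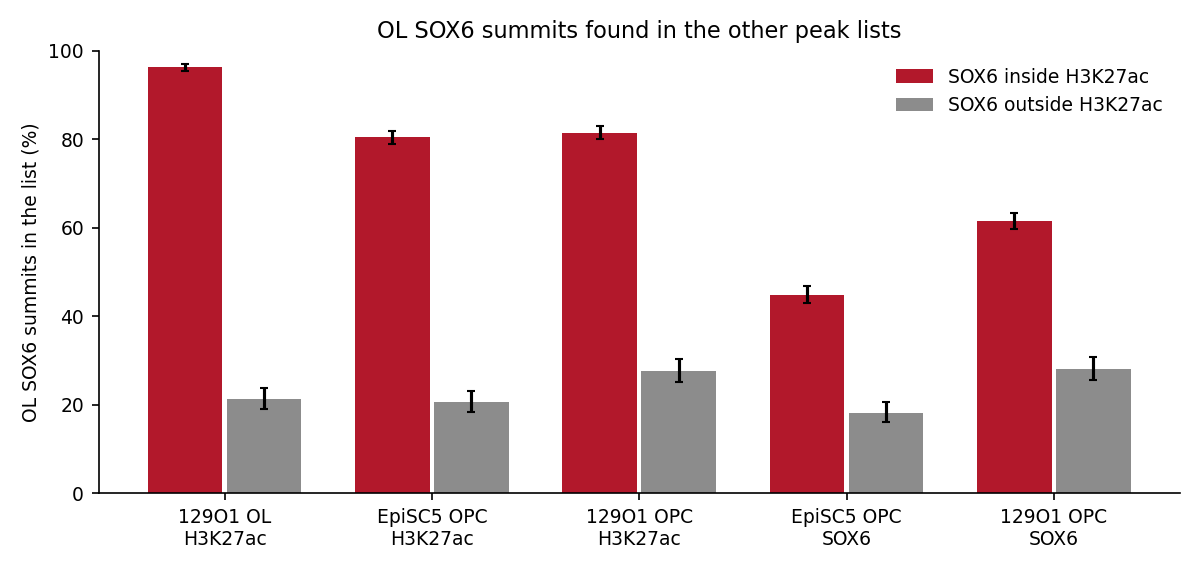
Share of OL SOX6 summits (%) that lay in peaks of 5 other libraries, for summits inside and outside EpiSC5 OL H3K27ac, with exact 95% binomial intervals. The bars of summits inside stand above those outside in all 5 lists, at 96.3% and 21.3% in 129O1 OL H3K27ac.

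A large part of the summits outside H3K27ac came from a few places. When summits within about 12 kb of each other were joined into runs, 13 runs had at least 10 summits and together held 447, of which 85 were inside H3K27ac (19.02%) and 362 outside, 30.1% of all summits outside. Summits with no neighbour were inside in 78.4% (2076 of 2648). Without the 13 runs, 75.3% of the summits were inside. By chromosome the share inside was between 51.4% on chromosome 2 and 84.5% on chromosome 19, and between 67.9% and 84.5% without the runs.

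The largest run spanned 138 kb over Qk, which encodes an RNA-binding protein needed for myelin, and had 97 summits, 32 inside H3K27ac and 65 outside. Nfasc had a run of 62 (6 inside), and Bcas1, a gene that marks newly formed OLs, a run of 55 (6 inside) with 15 SOX6 peaks wider than 1 kb. Frmd4a, a scaffold protein of cell polarity, had 3 runs of 50, 48 and 34 summits with 3, 12 and 5 inside. Mbp, the myelin basic protein gene, had 23, of which 11 were inside, in 3 acetylated peaks that covered 56.9% of the run. Rasgef1b (19 summits) and Fam13c with Phyhipl (10) had none inside and no H3K27ac anywhere in the run, and Chn2 (13) had none inside. The rest were at Mink1 with Chrne (13, 3 inside), Hes5 with Pank4 (12, 4 inside) and Trio (11, 3 inside). Smaller runs included 8 summits at Baiap2 and Aatk, 1 of them inside.

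**Figure D5:**
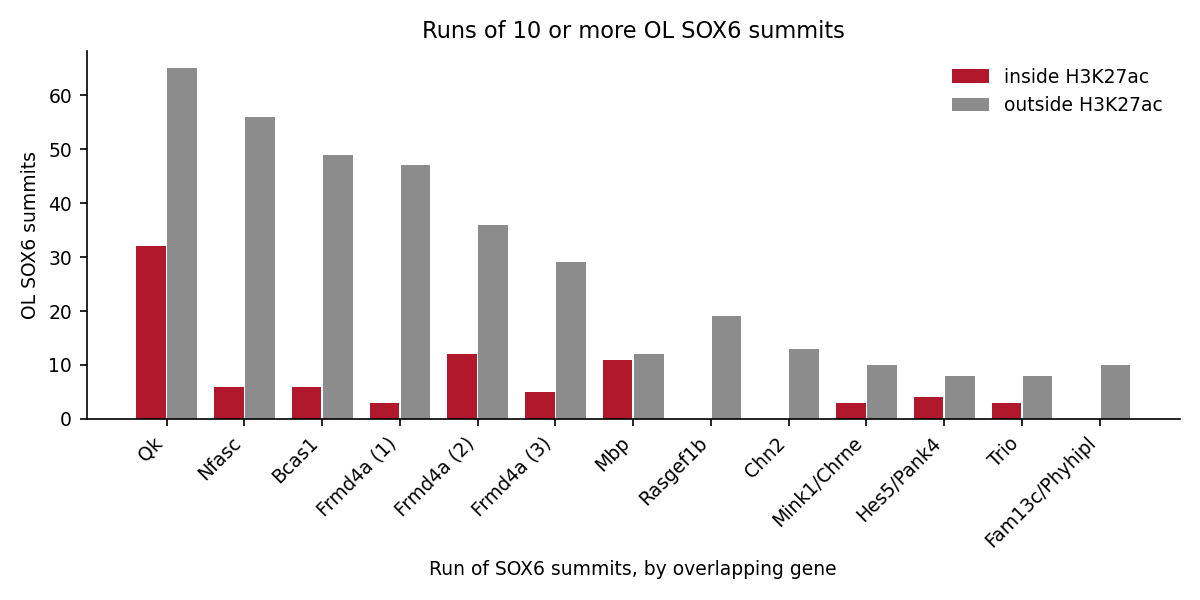
Number of OL SOX6 summits inside and outside H3K27ac in each of the 13 runs of at least 10 summits, labelled by the protein-coding genes they overlap, where Frmd4a has 3 runs. Summits outside outnumber those inside in all 13.

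Few summits of the runs lay in peaks of the OPC SOX6 lists, although 7 of the 12 at Hes5 with Pank4 lay in those of 129O1. Of the 85 summits inside H3K27ac in these runs, 9 (10.6%) lay in EpiSC5 OPC SOX6 peaks and 17 (20%) in 129O1 OPC SOX6 peaks. In 129O1 OL H3K27ac peaks lay 57 (67.1%) of these 85. Of the 362 summits outside H3K27ac in these runs, 2 (0.552%) lay in EpiSC5 OPC SOX6 peaks, 9 (2.49%) in 129O1 OPC SOX6 peaks and 20 (5.52%) in 129O1 OL H3K27ac peaks. Of the 572 summits outside H3K27ac with no neighbour, 187 (32.7%), 278 (48.6%) and 200 (35.0%) did. Since OL SOX6 has a single library, the runs were not checked in a second one, and whether broad background at these genes enters them was not tested.

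Counts per gene show the contrast between the lists. Within the gene body and 10 kb on both sides, Qk had 91 SOX6 summits in EpiSC5 OLs, against 4 in EpiSC5 OPCs and 19 in 129O1 OPCs. Frmd4a had 151 in OLs, against 12 in EpiSC5 OPCs and 17 in 129O1 OPCs, Nfasc had 64 against 2 and 6, and Bcas1 had 55 against 2 and 3. H3K27ac at Bcas1 differed less than its SOX6 counts, with 11.6 kb in EpiSC5 OLs and 11.7 kb in 129O1 OLs, against 6.71 and 10.8 kb in the OPCs of these lines. At Nfasc H3K27ac was 52.9 kb in EpiSC5 OLs and 68.0 kb in 129O1 OLs, against 2.81 and 7.98 kb in the OPCs. Frmd4a had 65.8 and 76.5 kb in OLs against 25.4 and 33.2 kb in OPCs, and Qk 41.0 and 42.6 kb against 23.3 and 32.8 kb.

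At the level of genes, 2916 of 20665 protein-coding genes had a summit inside H3K27ac within the body or 10 kb of it, a background of 14.1%. A summit outside was found at 792 genes, 3.83%, and H3K27ac without any SOX6 at 9675, 46.8%. These divide into 2732 genes with summits inside only, 184 with both, 608 with summits outside only and 9675 with H3K27ac alone, which leaves 7466 with neither. The median gene length was 26.9, 36.6, 22.2, 24.1 and 8.17 kb in these 5 classes, and the median acetylated length was 3.49, 6.31, 1.51, 1.89 and 0 kb. The share of genes with a summit inside was higher among long genes, at 11.0% under 20 kb and 22.1% at 200 kb or more. The median length of each list is therefore given below. A summit inside also needs H3K27ac, and 36.1% of all genes had neither SOX6 nor H3K27ac. Of the genes found, 0 of 30 OPC, 0 of 24 immature OL, 0 of 21 cholesterol synthesis and 1 of 29 myelin genes had neither. In contrast, 6 of 16 cell cycle and 8 of 12 microglia genes had neither. The shares of all genes given below consider length alone, and the part of acetylation in the differences was not tested.

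Genes of the immature OL list often had SOX6 summits. The gene lists were chosen with earlier results of these data known, and this one includes genes of the long runs. Of its 24 genes found, 16 had summits inside H3K27ac (66.7%) and 15 outside (62.5%), with 96 and 334 summits in all. The median length of these genes was 138 kb. For all genes of 100 to 200 kb the shares were 19.9% inside and 5.19% outside, but the choice of members bears on the difference. Qk (32 inside, 59 outside), Frmd4a (22 and 129), Nfasc (8 and 56), Bcas1 (6 and 49) and Chn2 (2 and 12) accounted for most of the summits. The kinase gene Fyn had 5 inside and 4 outside with 92.9 kb of H3K27ac, Tns3, a focal-adhesion protein, had 4 and 9 with 87.5 kb, and Enpp6, a choline phosphodiesterase of new OLs, had 2 and 1. Tcf7l2, an effector of Wnt signalling active at this stage, had 2 inside and 0 outside.

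The myelin and lineage factor lists had summits at a smaller share of genes than the immature OL list. That list includes genes of the long runs by choice, and its genes are longer. Its median acetylated length was 23.4 kb, against 5.40 kb for the myelin and 11.7 kb for the lineage factor genes. The order of these lists is therefore no result about them. Among all genes the shares were 11.0% inside and 3.03% outside under 20 kb, and 14.8% and 4.43% at 20 to 50 kb. Of 29 myelin genes, with a median length of 18.6 kb, 8 had summits inside (27.6%) and 6 outside (20.7%). Mbp had 11 inside and 12 outside, Cnp, the phosphodiesterase of myelin, had 3 and 0, Bin1, a membrane-curving protein, had 3 and 6, and Gjc3, a connexin, had 0 and 4. Mag and Mobp, which encode proteins of the myelin sheath, had 0. Of 19 lineage transcription factors, with a median length of 32.5 kb, 9 had summits inside (47.4%) and 3 outside (15.8%). Sox10 and Olig2, which direct the lineage, had 3 inside and 0 outside each, Myrf, the activator of myelin genes, had 1 and 1, and Sox2 had 1 at its promoter. Sox5, the SoxD relative, and Sox6 itself each had 1 inside and 0 outside, against 16 and 15 summits in EpiSC5 OPCs. The EpiSC5 OPC SOX6 list is also longer as a whole, with 15166 peaks against 3858 in OLs.

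Of 30 OPC genes, with a median length of 40.4 kb, 9 had summits inside (30%) and 4 outside (13.3%). For all genes of 20 to 50 kb the shares were 14.8% and 4.43%. Tnr, which encodes tenascin-R, had 5 and 3 with 114 kb of H3K27ac, and Pdgfra had none. Cholesterol synthesis, MAPK feedback and cell cycle genes stand beside 11.0% inside and 3.03% outside among all genes under 20 kb. Of 21 cholesterol synthesis genes (median 17.7 kb), 5 had summits inside, among them Insig1, Mvk and Dhcr7, and 0 had any outside. Of 18 genes of MAPK feedback (median 9.07 kb), 4 had summits inside (Spry2, Etv5, Spred1 and Junb) and 0 outside. Among 16 cell cycle genes (median 10.5 kb), 1, the mitotic kinase gene Aurkb, had both. Among 15 adhesion and neurite genes of long span, with a median length of 1098 kb, 3 had summits inside (20%) and 3 outside (20%), against 22.1% and 6.67% of all genes of 200 kb or more.

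For lists of other cell types the counts were small, and a share near the background of 14.1% inside and 3.83% outside is no result about the list. Summits inside were at 1 of 14 astrocyte genes, 2 of 15 neuron genes, and 0 of 12 microglia and 0 of 14 pluripotency genes, with 1, 1, 0 and 0 genes outside. The median lengths of these lists were 10.1, 49.3, 15.5 and 6.85 kb. Among all genes under 20 kb the shares were 11.0% inside and 3.03% outside. At 20 to 50 kb, the bin of the neuron list, they were 14.8% and 4.43%. Of 11 Schwann cell and neural crest genes (median 20.7 kb), 3 had summits inside (Sox10, which the lineage list shares, Egr2 and Mitf) and 0 outside. The housekeeping list, however, had summits inside at 7 of 12 genes (58.3%) and outside at 2, including Actb with 4 inside and 1 outside, Rplp0 with 2 and 0, and Gapdh with 1 and 0. The median length of this list was 5.13 kb, and 11.0% of all genes under 20 kb had a summit inside. The part of highly transcribed open chromatin in the counts of this list and of the immature OL list was not tested.

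Beyond these lists, several genes had many summits inside H3K27ac. Znrf1, a ubiquitin ligase, had 8 inside and 1 outside with 36.5 kb of H3K27ac, Trio, a guanine nucleotide exchange factor, had 7 and 9 with 82.4 kb, and Arhgap35, a GTPase-activating protein, had 6 and 3 with 53.9 kb. Ppp1r16b had 6 and 4, and Tmem108 5 and 0. Long acetylation also occurred with no SOX6 summit. Opcml, an adhesion molecule, had 80.01 kb, Ralgps1, an exchange factor for Ral, 68.2 kb and Slc22a23, a transporter, 50.6 kb, followed by Gse1, Snd1, Zdhhc14, Hipk2, Chst11, Astn2 and Msi2 at 32.9 to 49.9 kb. These genes were not free of SOX6 in every list. In EpiSC5 OPCs Opcml had 17 summits, Ralgps1 3, Slc22a23 4, Gse1 12 and Msi2, an RNA-binding protein, 10.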

How the data were processed

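The deposited peak lists of 7 ChIP-seq libraries were used, 1 library per target, cell type and line. The submitters' processing notes name Bowtie2 2.3.2 and build mm10, beside bedtools, deepTools, Picard and Trim Galore 0.3.1. Which caller made the peaks, and against which control, is not given in the sources used here, and the 2 input samples were not analysed here. SOX6 lists have the narrow-peak layout with a summit, and H3K27ac lists the broad-peak layout, judged from the number of columns. The deposited score is 10 times the deposited −log10 q, cut to a whole number, except for 2 peaks of each H3K27ac list. The authors' fold enrichment is a ratio, as the column's place in the layout says. These values describe or rank peaks within a list only. The lists hold no counts, so the depth is unknown, and the sequencer of each library is not stated in the labels.

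Summit placement, overlaps, runs and counts were computed in Python 3.11.15 with pandas 2.3.3, numpy 2.4.6 and scipy 1.17.1, and checked on simulated intervals. Figures were drawn with matplotlib 3.10.9. Gene positions came from RefSeq GRCm38.p6 (20665 protein-coding genes on chromosomes 1 to 19), of which 16457 have an entry in the promoter table. That table was used for chromosomes 1 to 17 and 19. No genome sequence was used, so letters were read in promoter windows only. Named genes were the 10 with most summits inside, most outside and longest H3K27ac without SOX6, genes at the 5 highest-scoring and widest peaks of each class, the 5 H3K27ac peaks with most summits, list members and 18 genes always given. The members and the 14 gene lists were chosen with earlier results of these data known. Of the list entries, 2 were not found, and X-linked ones were left out. Some list members are not reported here by name. The other settings tried were other score limits, overlap rules, gene windows and the 129O1 list.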

Additional observations from a re-analysis of the deposited data

Results flagged for a closer look

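The OL SOX6 list held 2 peaks on the mitochondrial genome, outside the chromosomes used above, with a highest fold enrichment of 2.11, and the other 6 lists held 0 there. It also held 54 peaks on unplaced or unlocalised sequences, the widest 10949 bp, against 3 in the EpiSC5 OPC SOX6 list and 7 in the 129O1 OPC SOX6 list. The H3K27ac lists held 55 in EpiSC5 OLs and 70 in 129O1 OLs, against 10 in EpiSC5 OPCs and 17 in 129O1 OPCs. No input list was used, so these were set against the other libraries alone.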

How the results depend on the processing

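No paired analysis was possible because each target has 1 library per line and cell type, so no library could be left out either. Of 63 values under other settings, for 9 results, 35 moved by less than counting error or, for gene counts, less than 1.5 times, and 28 moved further. The cause was not tested. With the higher-scoring 50% of H3K27ac peaks, 60.1% of summits were inside, 14.0% of H3K27ac peaks held SOX6 and the width ratio was 1.26. With the 129O1 OL list, 72.9% were inside and 379 genes had summits outside only. With H3K27ac extended by 500 bp, the shares were 77.4% and 9.08%. With the higher-scoring 50% of SOX6 peaks, 4.28% of H3K27ac peaks held SOX6, the width ratio was 1.58, gene body shares were 66.5% inside and 52.2% outside, and gene counts were 1644 inside only, 404 outside only and 64 both. With any overlap of the SOX6 peak, the values were 74.3%, 8.66% and a width ratio of 1.58. Joined peaks gave a width ratio of 4.51 and score weighting 1.07. Gene body shares were 75.2% inside and 65.9% outside with all annotated genes, and 90.4% and 85.9% with 10 kb added. With the gene body alone, 1589 genes had summits inside only, 272 outside only and 57 both. Chosen after the data were seen, leaving out runs of at least 10 summits gave 75.3% inside and a gene body share outside of 45.4%, and leaving out SOX6 peaks wider than 1 kb moved no value past these limits. The share in gene bodies stayed higher inside than outside in every setting tried.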
